A study of Mus musculus with 37 samples.

Results

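The effect of 10 social defeats was compared between spleen and femoral bone marrow of C57BL/6N wild-type mice, gene by gene, as a difference of differences. For each gene the value in spleens after 10 defeats minus that in spleens of undefeated mice was taken on a log2(value + 1) scale, and the same difference in marrow was subtracted from it. Social defeat exposes a mouse to an aggressive opponent, here with a single defeat a day. The groups were spleen 10xStress (6 libraries), spleen Control (4), marrow 10xStress (5) and marrow Control (3), which makes 18 of the 37 libraries of the series. All 4 groups share strain and genotype, marrow was flushed from the femur, and polyadenylated RNA was sequenced from whole tissue. Libraries of mice that rested for 1 week after the last defeat, or that were defeated 1 or 4 times, entered the fit for the spread and are named where they are used. The labels give no age or sex of the mice, and which spleen and marrow came from the same mouse was not used here. The labels call the libraries biological replicates.

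Bone marrow is the main site of blood formation in the adult mouse. The mouse spleen filters blood and houses mature B and T cells in its white pulp, and its red pulp can also make red cells and granulocytes when demand is high. A gene that rises in spleen and falls in marrow therefore differs from one that moves alike in both, and both differ from one that moves in a single tissue. In RNA from whole tissue, fewer cells of a type and less RNA per cell cannot be told apart.

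The tissues matched their labels in the undefeated mice. All 8 spleen markers looked at, among them Cd5l and Spic of red pulp macrophages and Cxcl13, Ccl19 and Ccl21a of the white pulp, were higher in every control spleen than in any control marrow, and all 8 marrow markers, among them Mpo, Elane and Rag1, were the reverse. Deposited values are abundances that the authors scaled, not read counts; the labels do not say by what method. Summed over genes they came to 1539200 to 2375600 in D6, D7, D9 and D10, to 682160 and 834600 in D4 and D5 and to 709250 to 878920 in spleen controls, so that values of these spleens set side by side carry different totals. In marrow the sums were 926290 to 1054600 after 10 defeats and 890340 to 1008600 in controls. Depth estimated from the steps between low values was 7.55 to 40.7 M reads in the 18 libraries. The spleens after 10 defeats did not form a single cloud. In 4 of them (D6, D7, D9 and D10) values fell with transcript length, with slopes of -0.278 to -0.239 log2 units per doubling of length against the mean of the spleen controls, while D4 and D5 had -0.020 and -0.048 and the spleen controls -0.028 to 0.047. The same 4 libraries held 45.4% to 52.1% of their summed value in haemoglobin genes, against 11.5% and 24.5% in D4 and D5 and 10.6% to 23.1% in spleen controls. Their mitochondrially encoded genes held 0.257% to 1.26%, against 4.40% and 3.14% in D4 and D5 and 5.03% to 8.58% in spleen controls. D6 and D9 also had GC slopes of -0.434 and -0.426 log2 units per 10 percentage points of GC content. Marrow showed no such split in length, with slopes of -0.023 to 0.019, and its haemoglobin share was 21.3% ± 6.60 (SD, n = 5) after 10 defeats and 42.1% ± 2.96 (SD, n = 3) in controls. These 4 spleens are called steep here. Values without the steep libraries leave out these 4 and 1 rested spleen of the same kind, so that the spleen effect then rests on D4 and D5 alone; this choice was made after seeing the data. The part of length, haemoglobin and mitochondrial share in the results was not tested beyond this and the removal of length and GC trends.

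Spleen and marrow responded differently for a large part of the genes. The difference of effects was past the threshold (limma, Benjamini-Hochberg adjusted p under 0.05) in 43.1% of 14513 genes tested, with 2330 higher in the spleen's effect (16.1%) and 3919 lower (27%). Of the calls 37.3% were higher; this share was 53.8% with median-ratio rescaling and 17.8% with all libraries set to equal totals, because scaling shifts the spleen's median effect over all genes (-0.36 as deposited, -0.01 and -0.84 under these 2 scalings; marrow -0.13, -0.01 and -0.17). In spleen, 16.8% of 13945 genes tested were higher and 41.9% lower after 10 defeats; in marrow, 17.5% of 12442 were higher and 28.3% lower. With D4 and D5 as the only spleens after 10 defeats, 8.59% of 13649 genes were higher and 15.2% lower in spleen. The difference was then called in 32.1% of 14334, with 14.3% higher and 17.8% lower. Counts given below without the steep libraries stand beside these shares, not beside those of all libraries. The spleen effect and the marrow effect had a Pearson correlation of 0.12 across 12080 genes tested in both tissues, and -0.03 without the steep libraries. Genes are not independent replicates. The 2 effects share no library, and whether they share mice is not established here.

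Genes were then sorted by calls in each tissue and in the difference itself. Higher in spleen and lower in marrow were 731 genes (5.04%), and lower in spleen and higher in marrow were 712 (4.91%). Higher in both were 424 (2.92%) and lower in both 1531 (10.5%). With a called difference and a call in 1 tissue, 931 genes were higher in spleen (6.41%), 2387 lower in spleen (16.4%), 457 higher in marrow (3.15%) and 466 lower in marrow (3.21%). Not all of these were tested in the other tissue: 61 of the 931 and 590 of the 2387 were not tested in marrow, and 37 of the 457 and 48 of the 466 were not tested in spleen. When the steep libraries were left out, the class of genes higher in spleen and lower in marrow held 550 (3.84%), of which 473 were among the 731, while that of genes higher in both held 105 (0.733%), of which 95 were among the 424. The class lower in spleen and higher in marrow then held 278 (1.94%) and that lower in both 608 (4.24%). In spleen only 444 (3.1%) were then higher and 684 (4.77%) lower, and in marrow only 1161 (8.1%) were higher and 802 (5.6%) lower.

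**Figure D1:**
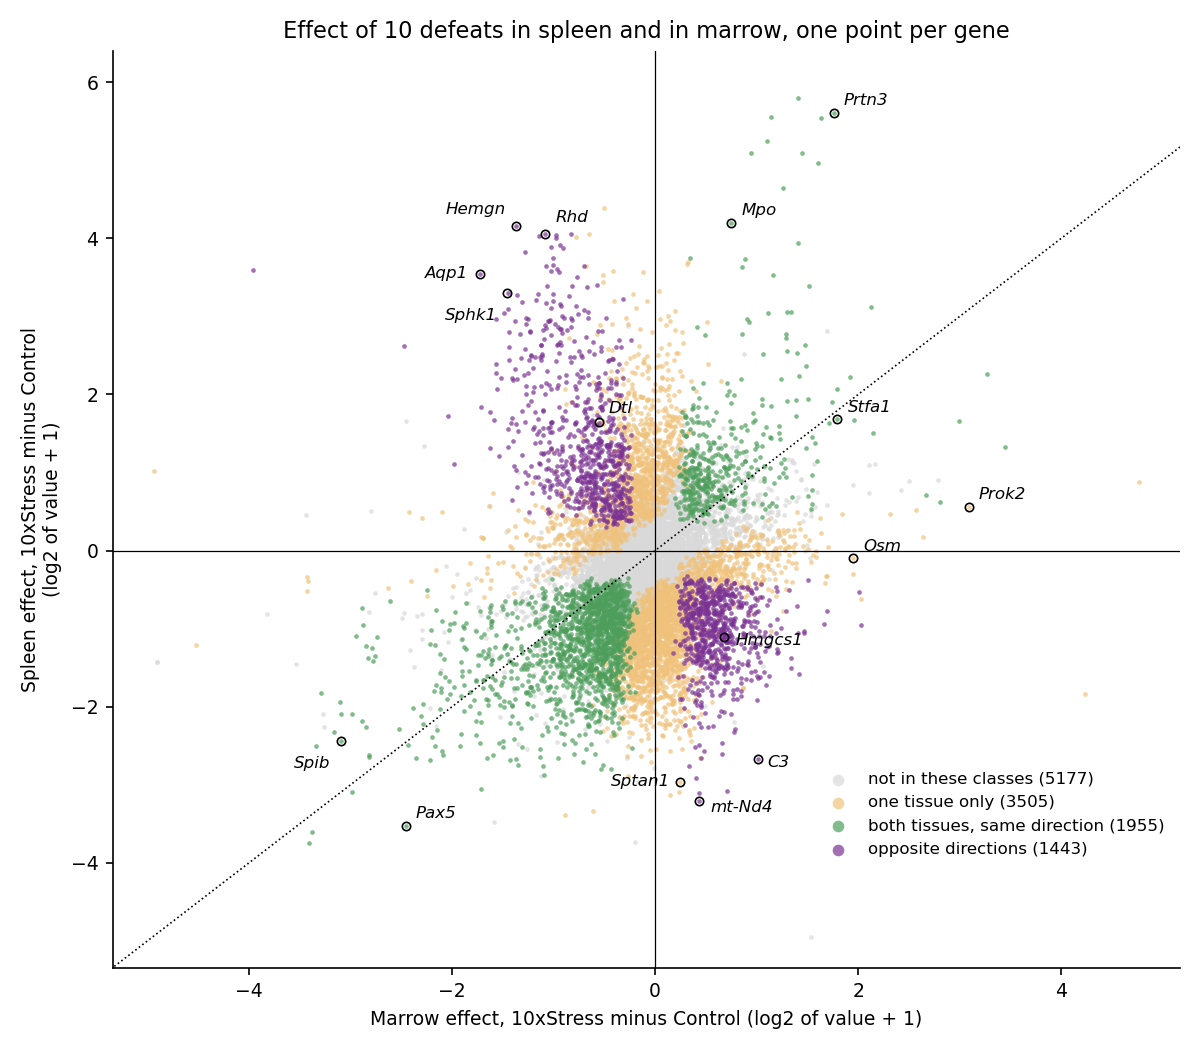
Spleen effect (vertical) against marrow effect (horizontal) of 10 defeats, both as 10xStress minus Control in log2 of value + 1, with a point for each of the 12080 genes tested in both tissues; the dotted line marks equal effects. Genes called in opposite directions, 1443 in all, fill the upper left and lower right, and the red cell genes Hemgn, Rhd and Aqp1 lie at the upper left.

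**Figure D2:**
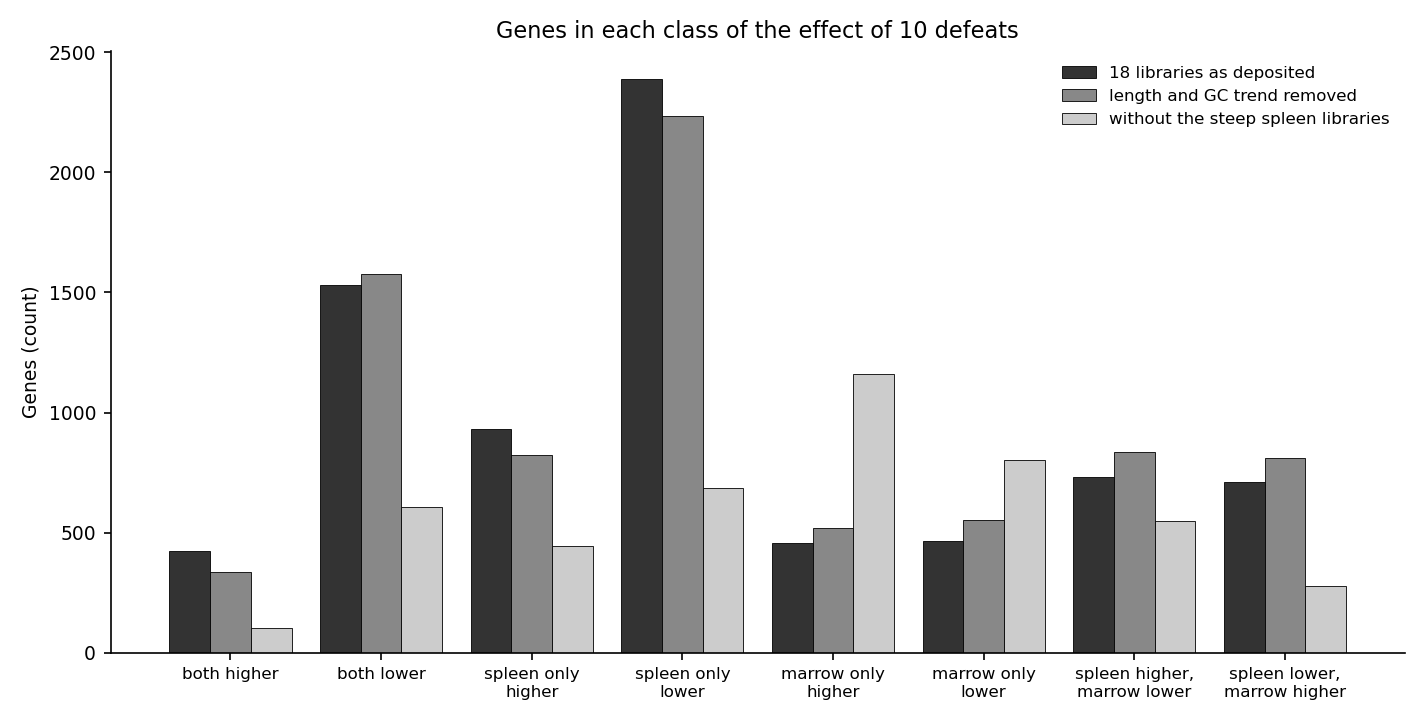
Genes in each class (count) with all libraries as deposited, with trends over length and GC removed library by library, and without the steep spleen libraries. Removing the trend leaves 836 (5.78%) and 810 (5.6%) genes in the 2 opposite classes, while leaving out the steep libraries takes the class of genes lower only in spleen to 684 and raises both marrow classes.

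Red cell genes were the clearest group with opposite directions. All 32 genes of the erythroid list were tested. In spleen 31 were higher with a median effect of 3.04, while in marrow 26 were lower with a median of -0.99, and 1 was higher there. Over all genes 16.8% were higher in spleen, and 28.3% were lower and 17.5% higher in marrow. The difference was called higher in all 32 (16.1% of all genes), of which 25 fell in the opposite class (background 5.04%). With median-ratio rescaling 17 of the 32 were lower in marrow and 17 opposite, with equal totals 27 and 20, and with quantile normalization 28 and 25. The difference was then called higher in 32, 31 and 29. With D4 and D5 as the only spleens after 10 defeats, the difference was called higher in 27 of 32 (14.3% of all genes). The spleen median was then 2.54 and 18 genes stayed opposite (3.84% of all genes in this class). The mean log2 level of the list was 6.79 to 8.86 in spleens after 10 defeats and 4.81 to 6.59 in spleen controls; in marrow it was 6.40 to 7.76 after 10 defeats and 8.19 to 8.43 in controls. The haemoglobin share given above lay lower in marrow after 10 defeats. In spleen it lay well above controls in the 4 steep libraries only. D4 (11.5%) was within the range of spleen controls (10.6% to 23.1%), and D5 (24.5%) was just above it. Globin genes are members of the list.

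Hemgn, a nuclear protein of developing red cells, had 61.4 and 190 in D4 and D5 and 181 to 394 in the 4 steep spleens, against 7.98, 5.84, 35.7 and 6.42 in spleen controls. Marrow had 100, 26, 80.5, 63.9 and 54.5 after 10 defeats, against 171, 135 and 161 in controls. No library of either tissue overlapped the other treatment, which held for 17.4% of all genes tested, and the defeated spleens reached or passed the level of control marrow in 5 of 6 libraries. The difference of effects was 5.53 ± 0.64 (SE; adjusted p = 2.5e-07), and 4.63 without the steep libraries.

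Aqp1, the water channel of the red cell membrane, had 194 and 452 in D4 and D5 and 483 to 936 in steep spleens, against 31.8, 31.4, 98.0 and 33.2 in spleen controls. It had 151, 33.2, 105, 75.1 and 77.3 in marrow after 10 defeats, against 282, 236 and 274 in marrow controls. The difference was 5.26 ± 0.56 (SE; adjusted p = 9.8e-08). Rhd, a protein of the Rh membrane complex, Uros, an enzyme of haem synthesis, and Cldn13, a claudin, differed by 5.13, 5.02 and 4.91. Among genes that met the rule for naming given below, they were the others with the largest differences of this class.

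The same held for regulators of the lineage. Gata1 and Tal1 are transcription factors required for red cell development, and Epor is the receptor for erythropoietin. Gata1 had 42.1 and 86.0 in D4 and D5 and 61.5 to 99.5 in steep spleens, against 4.32, 5.38, 16.2 and 6.86 in spleen controls, and in marrow 38.5, 13.2, 33.4, 29.3 and 32.4 after 10 defeats, against 63.1, 51.4 and 58.3 in controls. Its difference was 4.13 ± 0.45 (SE; adjusted p = 1.1e-07), and 3.92 without the steep libraries, close to the value with them. Tal1 differed by 4.79 and Epor by 4.54, and all 3 kept their class in each of 28 alternative fits. Control spleen C3 was the highest of its group for Hemgn, Aqp1, Tal1 and Gata1, and defeated marrow D6 the lowest of its group for the same genes; neither changed these calls when left out.

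Promoter sequence is shown for 4 of these genes and for Aqp1 because AGATAA is the core of the motif that GATA factors bind, and Gata1 itself moved with them. Windows run from 250 bases before to 50 bases from the start of the transcript (RefSeq, GRCm38.p6), are written 5′ to 3′ on the gene's strand, and carry AGATAA or its reverse complement TTATCT in capitals. Hemgn lies at chr4:46404134-46404433 (minus strand), Rhd at chr4:134864286-134864585 (plus), Tal1 at chr4:115056176-115056475 (plus; 1 of 2 starts in the table), Epor at chr9:21963527-21963826 (minus) and Aqp1 at chr6:55336049-55336348 (plus).
Hemgn: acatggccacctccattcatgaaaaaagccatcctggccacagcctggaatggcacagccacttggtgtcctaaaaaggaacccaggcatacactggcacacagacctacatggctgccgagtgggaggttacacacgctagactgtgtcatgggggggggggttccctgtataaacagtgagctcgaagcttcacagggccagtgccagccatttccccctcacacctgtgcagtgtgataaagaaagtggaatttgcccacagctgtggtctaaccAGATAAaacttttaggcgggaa
Rhd: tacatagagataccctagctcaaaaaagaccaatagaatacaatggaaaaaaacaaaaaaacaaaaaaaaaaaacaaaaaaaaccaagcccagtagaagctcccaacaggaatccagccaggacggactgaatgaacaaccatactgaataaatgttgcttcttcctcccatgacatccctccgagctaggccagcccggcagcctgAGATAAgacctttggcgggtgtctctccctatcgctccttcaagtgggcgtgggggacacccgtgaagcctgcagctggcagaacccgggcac
Tal1: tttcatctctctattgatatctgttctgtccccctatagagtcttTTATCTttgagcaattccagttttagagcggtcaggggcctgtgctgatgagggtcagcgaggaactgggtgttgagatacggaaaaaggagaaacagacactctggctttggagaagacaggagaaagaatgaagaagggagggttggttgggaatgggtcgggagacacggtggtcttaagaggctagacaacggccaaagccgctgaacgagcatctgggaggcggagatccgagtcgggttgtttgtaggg
Epor: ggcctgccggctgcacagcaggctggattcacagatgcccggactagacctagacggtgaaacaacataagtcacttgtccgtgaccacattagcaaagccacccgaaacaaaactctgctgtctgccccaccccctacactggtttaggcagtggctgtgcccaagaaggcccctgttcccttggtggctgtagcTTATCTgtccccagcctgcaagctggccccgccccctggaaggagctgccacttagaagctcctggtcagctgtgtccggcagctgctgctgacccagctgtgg
Aqp1: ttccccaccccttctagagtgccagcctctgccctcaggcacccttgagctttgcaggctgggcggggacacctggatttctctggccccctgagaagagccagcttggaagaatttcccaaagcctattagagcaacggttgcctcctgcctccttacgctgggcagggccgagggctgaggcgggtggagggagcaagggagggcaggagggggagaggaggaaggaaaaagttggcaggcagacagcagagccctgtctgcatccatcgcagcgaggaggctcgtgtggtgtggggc
Rhd and Epor held the letters 43 and 54 bases before the start (TTATCT in Epor), Tal1 205 bases before it, and Hemgn in the transcribed part of the window; Aqp1 held none in this window. Of the 32 erythroid genes 22 had a promoter in the table and 9 of these (40.9%) held the letters on either strand, against 8.26% of 10441 tested genes with a promoter. Over all 731 genes higher in spleen and lower in marrow the share was 11.5% of the 598 with a promoter, and over the 712 with the reverse pattern 7.47% of 576. For Tal1 the start with the most matches is the one shown, and a gene with several starts was counted if any of them held the letters. The genes shown were picked by hand and do not stand for the list. A match describes the letters and not a bound site.

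Not every red cell gene was called lower in marrow. Trim10, a gene of late red cell development, had 50.4 and 143 in D4 and D5 and 309 to 423 in steep spleens, against 11.4, 8.82, 45.3 and 6.02 in spleen controls. In marrow 112, 38.9, 108, 96.6 and 96.6 after 10 defeats stood beside 158, 129 and 118 in controls. Libraries did not overlap in either tissue, but the marrow effect of -0.65 did not pass the test (adjusted p = 0.074). Its difference was 4.70 ± 0.76 (SE; adjusted p = 2.3e-05), and it was called in spleen only, together with Car2, a carbonic anhydrase (difference 4.32), Prdx2, a peroxiredoxin abundant in red cells (4.05), and Chac2, which degrades glutathione (3.99). All 4 differed less without the steep libraries, at 1.99 to 3.90, and stayed in their class. Under quantile normalization Car2, Prdx2 and Trim10 were called lower in marrow as well, and Car2 also with equal totals or with the length and GC trend removed.

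Zfpm1, the cofactor of Gata1 known as FOG1, stood apart from the other regulators. It had 54.3 and 99.0 in D4 and D5, but 9.43, 29.5, 10.2 and 11.8 in D6, D7, D9 and D10, against 14.5, 13.3, 17.7 and 18.6 in spleen controls. D4 and D5 lay far above the control range, D7 above it, and the other 3 steep spleens below it. Its marrow values were 44.9, 10.1, 33.9, 22.9 and 22.2 after 10 defeats, against 77.9, 79.4 and 73.2 in controls (effect -1.64, adjusted p = 0.0011). It was called lower in marrow only with all libraries, and higher in spleen and lower in marrow without the steep libraries (spleen effect 2.14, adjusted p = 0.0087). The globin gene Hba-a2 was likewise called lower in marrow only (difference 2.30 ± 0.77 SE, adjusted p = 0.017), with a difference of 1.22 and an adjusted p of 0.25 without the steep libraries.

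**Figure D3:**
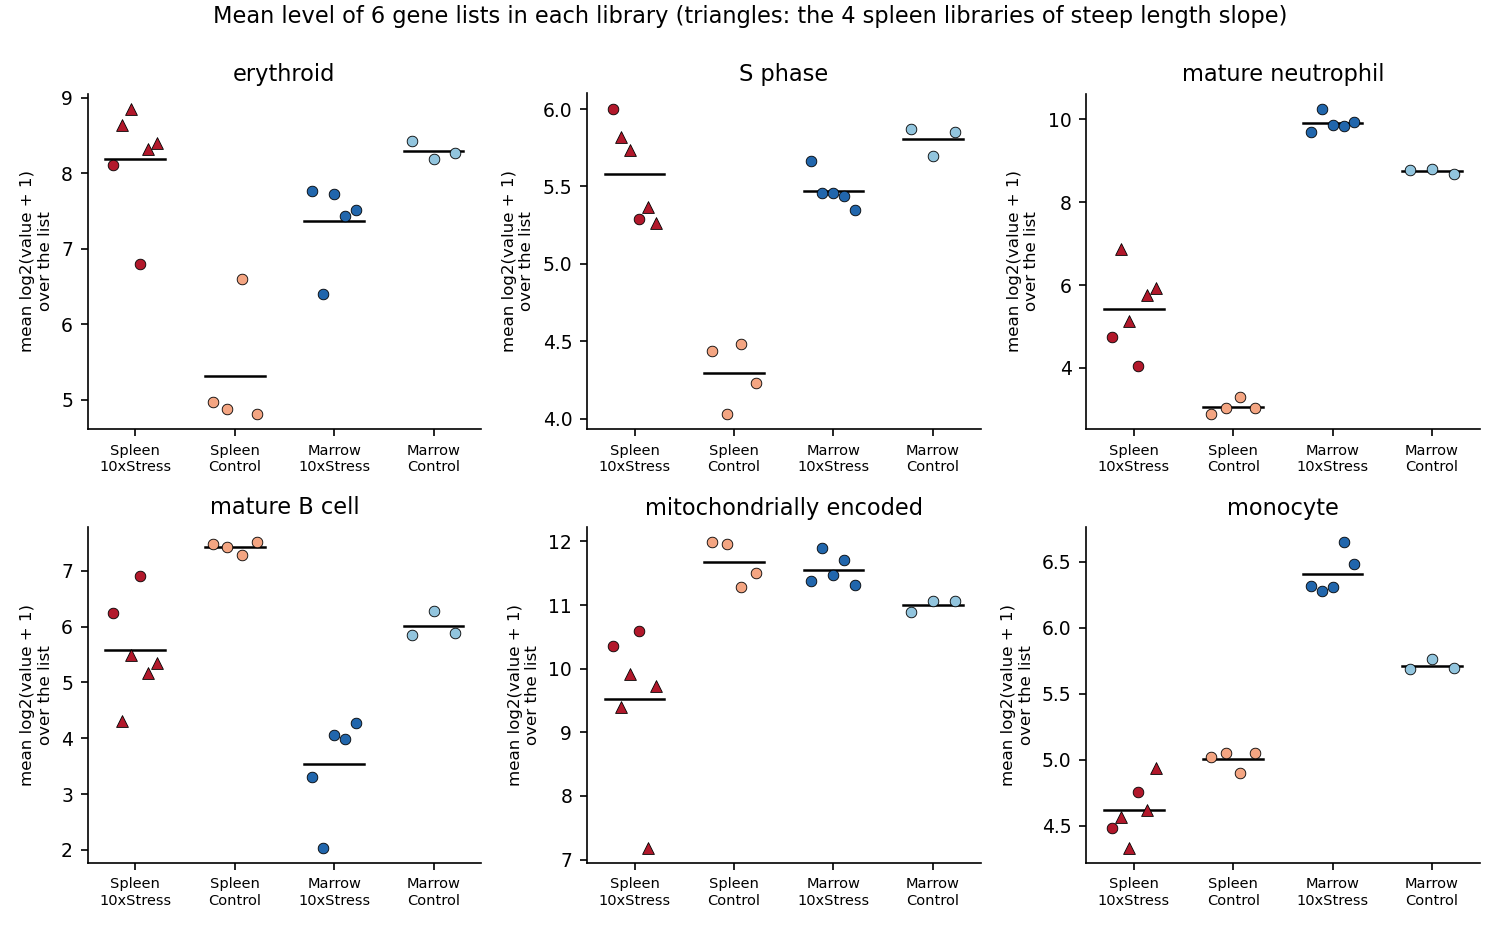
Mean log2(value + 1) over 6 gene lists in each library, with the mean of each group as a line; triangles mark the 4 steep spleen libraries. Erythroid and S phase genes lie higher in spleen and lower in marrow after 10 defeats, neutrophil genes lie higher in both tissues, and mature B cell genes lie lower in both.

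Genes of cell division followed red cell genes in direction. Of 22 S phase genes, 17 were higher in spleen (median 1.25) and 13 lower in marrow (median -0.31), and the difference was called higher in 17; of 22 G2/M genes, 16 were higher in spleen (1.51), 11 lower in marrow (-0.31) and 18 higher in the difference. No member of either list was called lower in spleen or higher in marrow. Over all genes 16.8% were higher in spleen, 28.3% lower in marrow and 16.1% higher in the difference. After leaving out the steep libraries the difference was called higher in 20 of 22 in each list. With equal totals it was called higher in 9 S phase and 14 G2/M genes, and 7 and 12 were higher in spleen.

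Dtl, which targets replication factors for destruction in S phase, had 10.9 and 17.9 in D4 and D5 and 12.4 to 22.5 in steep spleens, against 4.66, 3.83, 4.89 and 4.08 in spleen controls. The marrow libraries had 14.7, 11.6, 12.3, 10.7 and 10.0 after 10 defeats, against 17.9, 15.2 and 20.6 in controls. Treatments did not overlap in either tissue, and the difference was 2.20 ± 0.23 (SE; adjusted p = 9.8e-08). Mcm7, a subunit of the replicative helicase, differed by 1.94, Cdc6, which loads that helicase, by 2.59, and the cyclins Ccnb1 and Ccna2 by 2.89 and 2.53. Aurka, a kinase of the mitotic spindle, rose in spleen by 2.41 with a marrow effect of -0.12 (adjusted p = 0.34) and was called in spleen only.

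Mki67, the usual marker of proliferation, did not follow. It had 19.6 and 45.4 in D4 and D5 and 16.6 to 26 in steep spleens, against 24.9, 16, 19.5 and 18 in spleen controls, with 110, 79.7, 94.9, 102 and 72.3 in marrow after 10 defeats, against 125, 116 and 144 in marrow controls. Its difference was 0.78 with a 95% interval of -0.02 to 1.59 (adjusted p = 0.11), an interval that still holds differences above 1. With the length and GC trend removed it was 1.22 and Mki67 joined the opposite class; under quantile normalization and median-ratio rescaling it was called in marrow only. Myb, a transcription factor of blood progenitors, was opposite with a small rise in spleen (0.49, adjusted p = 0.046) and a fall of 1.05 in marrow (adjusted p = 3e-05); it kept its class in 17 of 28 alternative fits.

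Several lipid mediator genes moved in opposite directions with the red cell genes. Sphk1, the kinase that makes sphingosine 1-phosphate, had 34.2 and 55.7 in D4 and D5 and 70.0 to 99.5 in steep spleens, against 4.36, 4.09, 11.7 and 5.56 in spleen controls. Marrow had 12.5, 4.42, 11.1, 5.56 and 8.70 after 10 defeats, against 25.2, 20.4 and 25.0 in controls. The difference of 4.76 ± 0.48 (SE; adjusted p = 7e-08) was 4.15 without the steep libraries. Mfsd2b, the exporter of sphingosine 1-phosphate from red cells and platelets, had 21.2 and 39.5 in D4 and D5 and 20.9 to 33.1 in steep spleens, against 4.22, 4.34, 9.83 and 4.98 in spleen controls, and in marrow 31.2, 7.45, 25.1, 14.2 and 17.7 after 10 defeats, against 53.4, 49.1 and 55.7 in controls. It differed by 3.62 ± 0.43 (SE; adjusted p = 4.2e-07). Both kept their class in each of 28 alternative fits.

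The receptors went other ways. S1pr2 had 1.84 and 1.74 in D4 and D5 and 0.508 to 0.964 in steep spleens, against 5.87, 3.25, 1.77 and 4.31 in spleen controls, and 2.80, 3.33, 2.73, 2.64 and 2.49 in marrow after 10 defeats, against 1.27, 1.33 and 1.29 in controls. Its difference was -1.89 (adjusted p = 1.2e-05), in the class lower in spleen and higher in marrow, while without the steep libraries the spleen effect was -0.71 (adjusted p = 0.079). S1pr1, which guides lymphocytes out of tissue, fell in both tissues, with a difference of 0.30 (95% interval -0.80 to 1.40). That difference was 1.38 without the steep libraries (adjusted p = 0.0082), and S1pr1 was called lower in marrow only. Of the 16 genes of sphingosine phosphate and resolving receptors the difference was called higher in 2 and lower in 7, against 16.1% and 27% of all genes, and 3 and 3 without the steep libraries.

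Mgst3, a microsomal glutathione transferase, differed by 4.85 ± 0.73 (SE; adjusted p = 9.5e-06), with 52.4 and 162 in D4 and D5 and 220 to 536 in steep spleens, against 8.92, 8.76, 45.2 and 10.7 in spleen controls. Its fall in marrow was 0.93 on the log2 scale (adjusted p = 0.031) and was lost with median-ratio rescaling. Pla2g12a, a secreted phospholipase A2, had 35.4 and 51.5 in D4 and D5 and 28.8 to 50.5 in steep spleens, against 9.30, 5.08, 16.1 and 9.98 in spleen controls, and in marrow 12.6, 5.82, 9.36, 10.2 and 11 after 10 defeats, against 25.9, 21.2 and 26.5 in controls. The treatments did not overlap in either tissue and the difference was 3.28 (adjusted p = 2.5e-07). Lpcat1, which reacylates lysophosphatidylcholine, differed by 1.78. Among 25 genes of fatty acid synthesis and remodelling the difference was called higher in 6 and lower in 11, against 16.1% and 27% of all genes. The counts were 9 and 8 without the steep libraries, and 2 and 10 with equal totals.

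Smaller lists had members in the same opposite class. Gp9, a subunit of the platelet receptor for von Willebrand factor, rose by 1.49 in spleen and fell by 1.11 in marrow (difference 2.59, adjusted p = 0.00013), and 9 of 20 megakaryocyte and platelet genes were called higher in the difference and 1 lower (16.1% and 27% of all genes). With equal totals 4 of the 20 were called higher, and the spleen median was -0.09, against 0.53 as deposited. Epx, eosinophil peroxidase, had 0.493 to 2.01 in spleens after 10 defeats, against 0.123 to 0.331 in spleen controls, and 18.7, 9.32, 9.16, 26.3 and 14.4 in marrow after 10 defeats, against 38.7, 19.7 and 39.8 in marrow controls. At such low values in spleen its difference of 1.97 on the log2(value + 1) scale understates the change there. Its spleen effect of 0.38 without the steep libraries was not called (adjusted p = 0.2), which leaves Epx called lower in marrow only. Of 10 eosinophil genes 7 were called higher in the difference, and 4 without the steep libraries; 2 were in the opposite class, and none without the steep libraries. Mcpt8, a basophil protease, was higher in spleen only, at 1.96 to 20.2 after 10 defeats, against 0.267 to 0.637 in spleen controls (difference 2.88, adjusted p = 0.00027). The list it belongs to was mixed. Of 12 basophil and mast cell genes the difference was called higher in 3 and lower in 1 (16.1% and 27% of all genes). Of the 11 tested in spleen 5 were higher and 2 lower (16.8% and 41.9% of all genes). In marrow 3 were higher and 3 lower (17.5% and 28.3%).

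**Figure D4:**
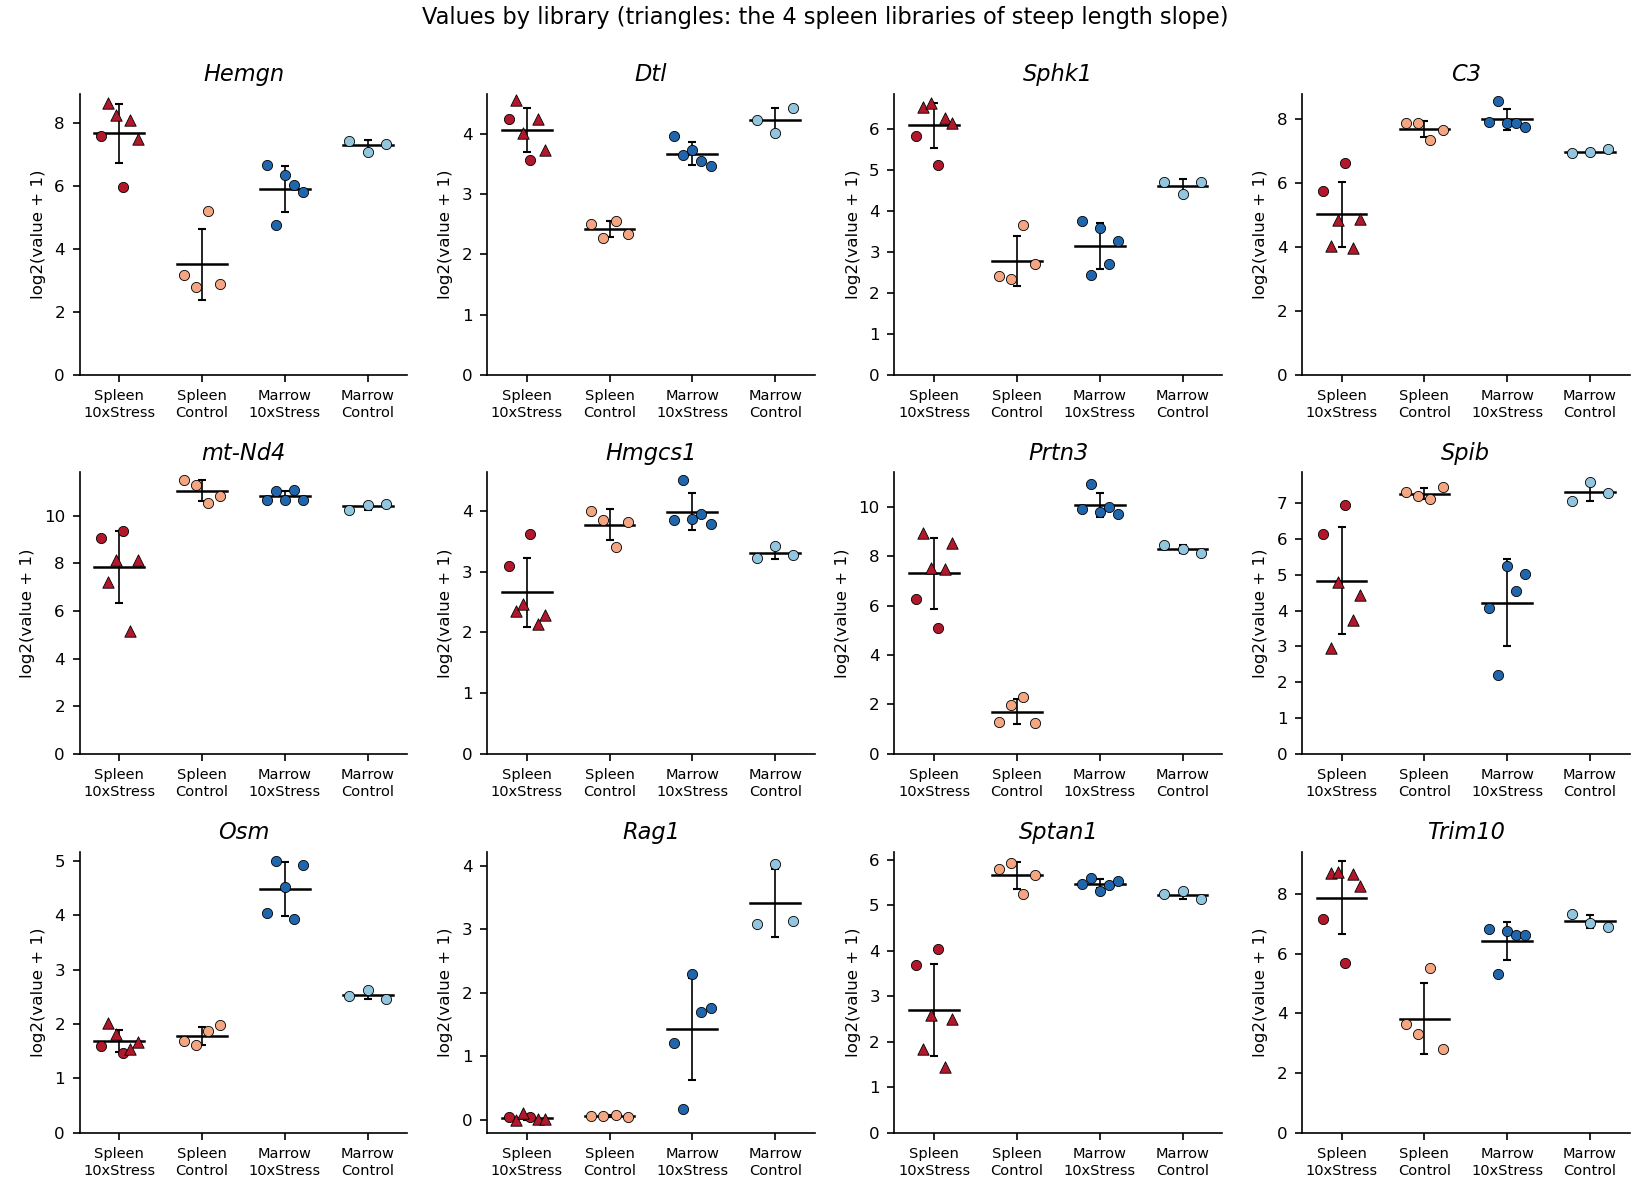
Log2(value + 1) by library for 12 genes, with group mean and SD; triangles are the 4 steep spleen libraries. Hemgn, Dtl and Sphk1 are higher in defeated spleen and lower in defeated marrow, C3, mt-Nd4 and Hmgcs1 the reverse, Prtn3 is higher and Spib lower in both tissues after defeat, Osm and Rag1 move in marrow, and Sptan1 and Trim10 are called in spleen only.

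Among genes that met the rule for naming, the reverse pattern, lower in spleen and higher in marrow, was led by C3, mt-Nd6, mt-Nd4, Myh9 and Fmnl1. C3, the central complement component, had 96.8 and 52.9 in D4 and D5 and 14.4 to 28.2 in steep spleens, against 229, 232, 161 and 199 in spleen controls. Its marrow values were 234, 375, 233, 231 and 213 after 10 defeats, against 121, 122 and 130 in controls. All treatments were apart, the difference was -3.68 ± 0.59 (SE; adjusted p = 2.1e-05), and it was -2.50 without the steep libraries. C3 kept its class in all 28 alternative fits.

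Myh9, non-muscle myosin heavy chain, had 47.0 and 30.4 in D4 and D5 and 4.37 to 4.84 in steep spleens, against 102, 87.8, 63.7 and 119 in spleen controls; in marrow it had 201, 213, 217, 204 and 205 after 10 defeats, against 150, 159 and 152 in controls. The steep libraries lay far below the other 2, and the difference was -3.54 with them and -1.68 without them (adjusted p = 0.00028 and 0.0015). Fmnl1, a formin that shapes actin in leukocytes, differed by -3.32 and by -1.72 without them. Their rises in marrow, 0.43 and 0.40, were not called under quantile normalization or equal totals. Sptan1 (spectrin alpha, difference -3.21), Sorl1 (a sorting receptor, -3.10) and Samhd1 (which hydrolyses deoxynucleotides, -2.79) fell in spleen only; Sptan1 had 15.4 and 11.9 in D4 and D5 and 1.73 to 5.05 in steep spleens, against 54.5, 59.7, 36.8 and 49.9 in spleen controls.

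Mitochondrially encoded genes split the tissues as a block. Of 13 genes, 12 were lower in spleen (median -2.26) and 9 higher in marrow (median 0.47), the difference was called lower in 12, and 8 were in the opposite class. Over all genes 41.9% were lower in spleen, 17.5% higher in marrow, 27% lower in the difference and 4.91% in this class. With equal totals 5 of the 13 were higher in marrow and 4 opposite; without the steep libraries the difference was lower in 12, the spleen median was -1.20 and 7 were opposite. Under quantile normalization the marrow median was -0.08, so the rise in marrow depended on scaling, while the spleen median stayed negative under each scaling run. mt-Nd4, a subunit of respiratory complex I, had 651 and 539 in D4 and D5 and 147, 279, 35 and 277 in D6, D7, D9 and D10, against 2893, 2528, 1498 and 1820 in spleen controls. The marrow libraries had 1639, 2088, 1632, 2134 and 1606 after 10 defeats, against 1204, 1406 and 1421 in controls. Its difference was -3.63 ± 0.72 (SE; adjusted p = 0.00023) and -2.26 without the steep libraries. mt-Nd6 differed by -3.79 and mt-Co1, of complex IV, by -2.25, while mt-Nd5 (-3.33) and mt-Nd4l (-3.28) were called in spleen only.

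Monocyte genes were mostly higher in marrow, while their calls in spleen were near those of all genes. Of 20 monocyte genes 14 were higher and 2 lower in marrow (median 0.73), 3 were higher and 9 lower in spleen (median -0.56), and the difference was called lower in 13, the same count as without the steep libraries. The shares over all genes were 17.5% higher in marrow, 41.9% lower in spleen and 27% lower in the difference. Without the steep libraries 5 of the 20 were lower in spleen. In that fit 15.2% of all genes were lower in spleen and 17.8% lower in the difference. Ctss, cathepsin S of antigen-presenting cells, had 325 and 210 in D4 and D5 and 59.3 to 139 in steep spleens, against 420, 477, 407 and 412 in spleen controls, and in marrow 196, 191, 208, 289 and 259 after 10 defeats, against 124, 130 and 122 in controls. The difference was -2.54 (adjusted p = 8.8e-05) and -1.55 without the steep libraries. Fn1, fibronectin, differed by -2.07. Ctsc, which activates granule proteases, had 47.2 to 88.7 in spleens after 10 defeats, against 91.4 to 118 in spleen controls, and 91.3 to 166 in marrow after 10 defeats, against 35 to 37.7 in controls (difference -2.46, adjusted p = 3.2e-06). After leaving out the steep libraries its spleen effect of -0.52 was not called (adjusted p = 0.18).

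Genes of the cholesterol synthesis list were called lower in the difference in 12 of 24. None was called higher, with 10 lower in spleen (median -0.38) and 10 higher in marrow (0.35); without the steep libraries 8 were called lower and 1 higher. The count lower in spleen is near the 41.9% of all genes, and those of the difference and of marrow stand beside 27% and 17.5%. In the fit without the steep libraries 1 of the 24 was lower in spleen (15.2% of all genes), against 10 with them, and 1 was in the opposite class, against 5. With equal totals 16 were lower in spleen. The spleen median was 0.03 with median-ratio rescaling. Hmgcs1, an early enzyme of the pathway, had 11.3 and 7.48 in D4 and D5 and 3.42 to 4.51 in steep spleens, against 15, 13.5, 9.57 and 13.1 in spleen controls. Marrow had 13.3, 21.8, 13.5, 14.4 and 12.7 after 10 defeats, against 8.37, 9.71 and 8.71 in controls. D4 lay within the spleen controls' range, and the spleen effect of -1.11 was -0.42 without the steep libraries (adjusted p = 0.12), which leaves Hmgcs1 called in marrow only. Its difference was -1.79 with all libraries and -1.09 without the steep ones (adjusted p = 0.00023 and 0.005). Mvd, a later enzyme, differed by -1.32 and stayed opposite without the steep libraries. With equal totals Mvd was called in spleen only. It kept its class in 18 of 28 alternative fits, and Hmgcs1 in 27. Bcl6, a transcriptional repressor, differed by -2.48 and Cyp4f16, a fatty acid hydroxylase, by -1.86. Cyp4f16 had 3.46 to 8.02 in spleens after 10 defeats, against 11.8 to 16.4 in spleen controls, and 10.7 to 17.4 in marrow after 10 defeats, against 7.41 to 8.60 in controls.

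Genes that moved alike upwards included many of neutrophils and their precursors. Of 22 mature neutrophil genes 16 were higher in both tissues (background 2.92%), 21 were higher in marrow (median 1.27) and 16 in spleen (median 2.43), where 1 was lower. Over all genes 17.5% were higher in marrow and 16.8% in spleen. The difference was called higher in 10 of the 22 and lower in 2 (median 1.44), against 16.1% and 27% of all genes. In the fit that left out the steep libraries, 10 were higher in both (0.733% of all genes) and the spleen median was 1.22. There the difference was called higher in 2 and lower in 1, against 14.3% and 17.8% of all genes. Levels stayed far apart: the mean log2 level of the list was 4.05 to 6.87 in spleens after 10 defeats and 9.69 to 10.3 in marrow after 10 defeats, with controls at 2.89 to 3.29 and 8.69 to 8.80.

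Of 13 genes of early granules 8 were higher in both tissues (2.92% of all genes), but 3 were lower in spleen, 2 of them with a called rise in marrow. The difference was called higher in 7 of the 13 and lower in 3, against 16.1% and 27% of all genes. Without the steep libraries 7 were higher in both and 1 was lower in spleen. Moving in the same direction did not mean by the same amount. Prtn3, a serine protease of primary granules, had 33.2 and 75.1 in D4 and D5 and 179 to 489 in steep spleens, against 1.46, 2.88, 3.94 and 1.40 in spleen controls. In marrow it had 965, 1915, 879, 1014 and 843 after 10 defeats, against 350, 316 and 282 in controls. It rose in both, by 5.60 in spleen and 1.76 in marrow, and the difference was 3.84 ± 0.71 (SE; adjusted p = 0.00012) and 2.21 without the steep libraries. Elane and Mpo, neutrophil elastase and myeloperoxidase of the same granules, differed by 4.14 and 3.44. Mpo had 21.1 and 40.8 in D4 and D5 and 43.7 to 107 in steep spleens, against 1.87, 1.53, 4.13 and 1.48 in spleen controls, and in marrow 1207, 1541, 806, 914 and 780 after 10 defeats, against 651, 606 and 553 in controls.

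The calprotectin genes S100a8 and S100a9 rose in both tissues, with a larger effect in spleen that was not called without the steep libraries. S100a8 had 365 and 893 in D4 and D5 and 32417, 3505, 9974 and 10469 in D6, D7, D9 and D10, against 93.5, 157, 163 and 71.7 in spleen controls, and in marrow 42396, 75842, 48790, 49850 and 50079 after 10 defeats, against 19175, 20470 and 18173 in controls. The difference of 3.66 (adjusted p = 0.013) was 0.86 without the steep libraries (adjusted p = 0.32), and that of S100a9 was 0.99 without them and 3.91 with them. For Ngp and Lcn2, genes of secondary granules, the difference was 3.38 and 2.53 with all libraries and stayed called at 2.23 and 1.67 without the steep ones (adjusted p = 0.02 and 0.047).

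Genes with rises of like size were few among those named. F10, coagulation factor X, rose by 1.90 in spleen and 1.74 in marrow, and its difference of 0.16 had a 95% interval of -0.80 to 1.12. It had 3.87 and 4.17 in D4 and D5 and 6.26 to 20.5 in steep spleens, against 1.5, 1.3, 1.77 and 1.23 in spleen controls; in marrow it had 48.3, 77.5, 41.6, 53.7 and 37.3 after 10 defeats, against 16, 13.3 and 13.7 in controls. Stfa1, a stefin that inhibits cysteine proteases, and Ifitm6, of an interferon-induced family, had differences of -0.11 (95% interval -1.68 to 1.46) and 0.30 (-1.42 to 2.02). Upp1, uridine phosphorylase, rose by 1.66 in spleen and 2.99 in marrow. Stfa1, Ifitm6 and Upp1 were not called in spleen without the steep libraries. Of 1613 genes called alike in both tissues without a called difference, 667 (41.4%) had an interval within ±1, and for the others the interval reached past 1 on the log2 scale.

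Genes that moved alike downwards included those of lymphocytes. Of 22 mature B cell genes 21 were lower in each tissue and 20 in both (background 10.5%), with medians of -1.92 in spleen and -2.80 in marrow. MHC class II genes were lower in spleen in 11 of 11 and in marrow in 9 of 11, and T cell genes in spleen in 22 of 24 and in marrow in 15 of the 19 tested there. Over all genes 41.9% were lower in spleen and 28.3% in marrow. The difference was called lower in 10 T cell genes (median -0.96; 27% of all genes), and in 3 without the steep libraries (median -0.18). In the fit that left out the steep libraries, 9 of 22 mature B cell genes and 3 of 11 MHC class II genes were lower in spleen. T cell genes were lower there in 20 of 24, and the difference was called higher in 11 mature B cell genes. In that fit 15.2% of all genes were lower in spleen, and 14.3% were higher and 17.8% lower in the difference.

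Spib, a transcription factor of B cells, had 124 and 69.5 in D4 and D5 and 6.83 to 27.2 in steep spleens, against 158, 147, 137 and 176 in spleen controls. In marrow it had 15.8, 3.60, 37.1, 22.7 and 31.9 after 10 defeats, against 134, 192 and 155 in controls. Treatments did not overlap in either tissue. The difference was 0.66 (95% interval -1.09 to 2.41) with all libraries and 2.37 without the steep ones (adjusted p = 0.015), where the spleen effect of -0.72 was not called (adjusted p = 0.074). Cd79a, part of the B cell receptor, behaved alike, with a difference of 0.99 and of 2.40 without them. Pax5 and Bach2, which hold B cell identity, fell in both tissues under either choice. Bach2 fell by 2.49 in spleen and 2.43 in marrow with a difference of -0.06 (95% interval -1.24 to 1.13). Fcer2a and Fcmr, receptors for IgE and IgM on B cells, had differences of 0.20 and -0.11. These were 1.79 and 1.99 without the steep libraries (adjusted p = 0.084 and 0.069), and neither gene was called lower in spleen.

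Among T cell genes Cd3e, a subunit of the T cell receptor complex, fell by 2.35 in spleen and 0.69 in marrow. It had 29.5 and 20.7 in D4 and D5 and 2.32 to 10.5 in steep spleens, against 58.4, 45.4, 44.7 and 50.5 in spleen controls, with 2.58, 1.99, 3.33, 4.30 and 4.26 in marrow after 10 defeats, against 5.60, 5.33 and 6.43 in marrow controls. The difference of -1.66 (adjusted p = 0.032) was -0.28 without the steep libraries (adjusted p = 0.57). It was also not called with median-ratio rescaling, a pseudocount of 0.1, no filter or the 18 libraries alone (adjusted p = 0.056 to 0.064). Cd3e kept its class in 20 of 28 alternative fits. H2-Ob, which modulates MHC class II loading in B cells, fell less in spleen, with a difference of 1.86 (adjusted p = 0.019), and 1.90 without the steep libraries (adjusted p = 0.07).

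Genes that rose in marrow alone included inflammatory genes. Of 24 inflammatory and acute phase genes 9 were higher in marrow and none lower (median 0.89; 21 of the 24 were tested in marrow), 4 were higher and 4 lower in spleen (median 0.09), and the difference was called lower in 8 and higher in 1. The calls in the difference are near the 27% and 16.1% of all genes or below them, and 17.5% of all genes were higher in marrow. Without the steep libraries none was higher in spleen and 8 were lower in the difference. Osm, the cytokine oncostatin M, had 1.76 and 2.02 in D4 and D5 and 1.92 to 3.07 in steep spleens, against 2.24, 2.05, 2.65 and 2.94 in spleen controls. In marrow it had 15.5, 31.0, 22.1, 14.2 and 29.4 after 10 defeats, against 4.73, 5.16 and 4.54 in controls. Spleens overlapped and marrows did not, with a difference of -2.05 ± 0.29 (SE; adjusted p = 4e-06) and -2.20 without the steep libraries.

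Cebpb, a transcription factor of myeloid cells under demand, had 39.5, 71.7, 51.7, 55.7 and 64.8 in marrow after 10 defeats, against 16.5, 11.6 and 13.1 in controls, while spleens had 1.75 to 5.35 after 10 defeats, against 3.38 to 5.24 in controls (difference -2.25, adjusted p = 0.00035). Prok2, prokineticin 2, differed by -2.53, and its marrow values after 10 defeats of 7.64 to 73.3, against 0.886 to 1.84 in controls, were the most spread, with D6 highest. Ms4a4a, a membrane protein of myeloid cells, differed by -2.66. Junb, a subunit of AP-1, rose in marrow only (difference -1.67), and Fos, its partner, rose by 1.33 in spleen and 3.44 in marrow with a difference of -2.11 (adjusted p = 0.023). Il1b, interleukin 1 beta, rose alike, by 1.64 in spleen and 1.72 in marrow, with a difference of -0.08 (95% interval -1.42 to 1.26). Neither Fos nor Il1b was called in spleen without the steep libraries, at effects of 1.66 and 0.91 (adjusted p = 0.079 and 0.14). Gapdh, a glycolytic enzyme often used as a constant, had 724 and 717 in D4 and D5 and 76.7 to 393 in steep spleens, against 761, 570, 638 and 629 in spleen controls, and 1665 to 2538 in marrow after 10 defeats, against 770 to 895 in controls.

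Enzymes and receptors of leukotrienes were followed as another list. Of 18 genes of the list 14 passed the filter, 8 were higher and 2 lower in marrow, 4 higher and 2 lower in spleen, and the difference was called lower in 5 and higher in 2. The counts in the difference lie near the 27% and 16.1% of all genes, while 17.5% of all genes were higher in marrow. Without the steep libraries 1 was higher in spleen. Ggt1, which trims leukotriene C4, had 10.9, 49.9, 13.7, 21.4 and 14.3 in marrow after 10 defeats, against 2.31, 1.25 and 3.33 in controls, and 1.49 to 9.90 in spleens after 10 defeats, against 1.97 to 3.31 in spleen controls. The difference was -2.46 (adjusted p = 0.0025) and -2.98 without the steep libraries. Dpep2, the next peptidase, differed by -1.75, and Cysltr1, a receptor for cysteinyl leukotrienes, by -0.84. Alox5, which starts leukotriene synthesis, and its partner Alox5ap rose in both tissues by 0.65 and 0.78 in spleen and 0.75 and 1.54 in marrow; without the steep libraries neither was called in spleen (effects 0.36 and 0.12). Alox15, a lipoxygenase found in eosinophils, fell in marrow only (difference 1.36, adjusted p = 0.0053). Marrow had 14.4, 6.5, 9.37, 27.6 and 21.3 after 10 defeats, against 33.3, 36.4 and 33.3 in controls. Spleens had 0.137 to 0.594 after 10 defeats, against 0.124 to 0.495 in spleen controls. Ptgs1, cyclooxygenase 1, fell in spleen only (difference -0.95, adjusted p = 0.012), and at -0.83 this was not called without the steep libraries (adjusted p = 0.074).

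Genes that fell in marrow alone included some of developing B cells, which are made in marrow. Of 16 B cell precursor genes tested 15 were lower in marrow, against 28.3% of all genes. Only 5 were called in marrow only (3.21% of all genes called lower in marrow only), 9 were lower in both tissues (10.5%) and 1 was opposite. Of the 13 tested in spleen 9 were lower there (41.9% of all genes), and 5 without the steep libraries (15.2% of all genes). Rag1 and Rag2, the recombinase of antigen receptor genes, were below the filter in spleen, with Rag1 at 0 to 0.0742 in all 10 spleens. In marrow Rag1 had 1.32, 0.125, 3.93, 2.24 and 2.38 after 10 defeats, against 7.44, 15.2 and 7.73 in controls, and the difference was 1.96 ± 0.38 (SE; adjusted p = 0.0002). Igll1, the surrogate light chain, had 6.67, 0.55, 10.8, 14.5 and 12 after 10 defeats, against 33.5, 44.2 and 34.8 in controls (difference 2.71, adjusted p = 0.018). Igll1 had 0 to 0.804 in the 10 spleens, so these genes were near 0 there in both treatments; without the steep libraries its difference of 2.30 was not called (adjusted p = 0.074). Myl4, a myosin light chain, and Msh5, a meiotic mismatch repair gene, differed by 2.01 and 2.08, and neither difference was called without the steep libraries (adjusted p = 0.14 and 0.052).

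Glucocorticoid response genes differed by tissue in a minority. Of 21 genes the difference was called lower in 9 and higher in 1, with 12 lower in spleen (median -0.86), and 6 higher and 6 lower in marrow (median -0.08; 20 tested there). Of all genes 27% were lower in the difference, 41.9% lower in spleen, and 17.5% higher and 28.3% lower in marrow. The count lower in spleen was 3 without the steep libraries, where the share of all genes was 15.2%. Fkbp5, a co-chaperone of the glucocorticoid receptor and a common readout of its activity, had 18.8 and 15.2 in D4 and D5 and 4.14 to 7.61 in steep spleens, against 51.5, 30.3, 30.1 and 39.8 in spleen controls, and 34.3, 48.9, 19.7, 37.8 and 26 in marrow after 10 defeats, against 47.9, 30.3 and 37 in controls. The spleens were apart and the marrows overlapped, with a difference of -1.78 (adjusted p = 0.017). It was -0.85 without the steep libraries (adjusted p = 0.22), and Tsc22d3, another target, differed by -1.28 and by -0.54 without them (adjusted p = 0.024 and 0.33). Without the steep libraries 4 genes of the list were lower in the difference and 1 higher, against 17.8% and 14.3% of all genes.

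**Figure D5:**
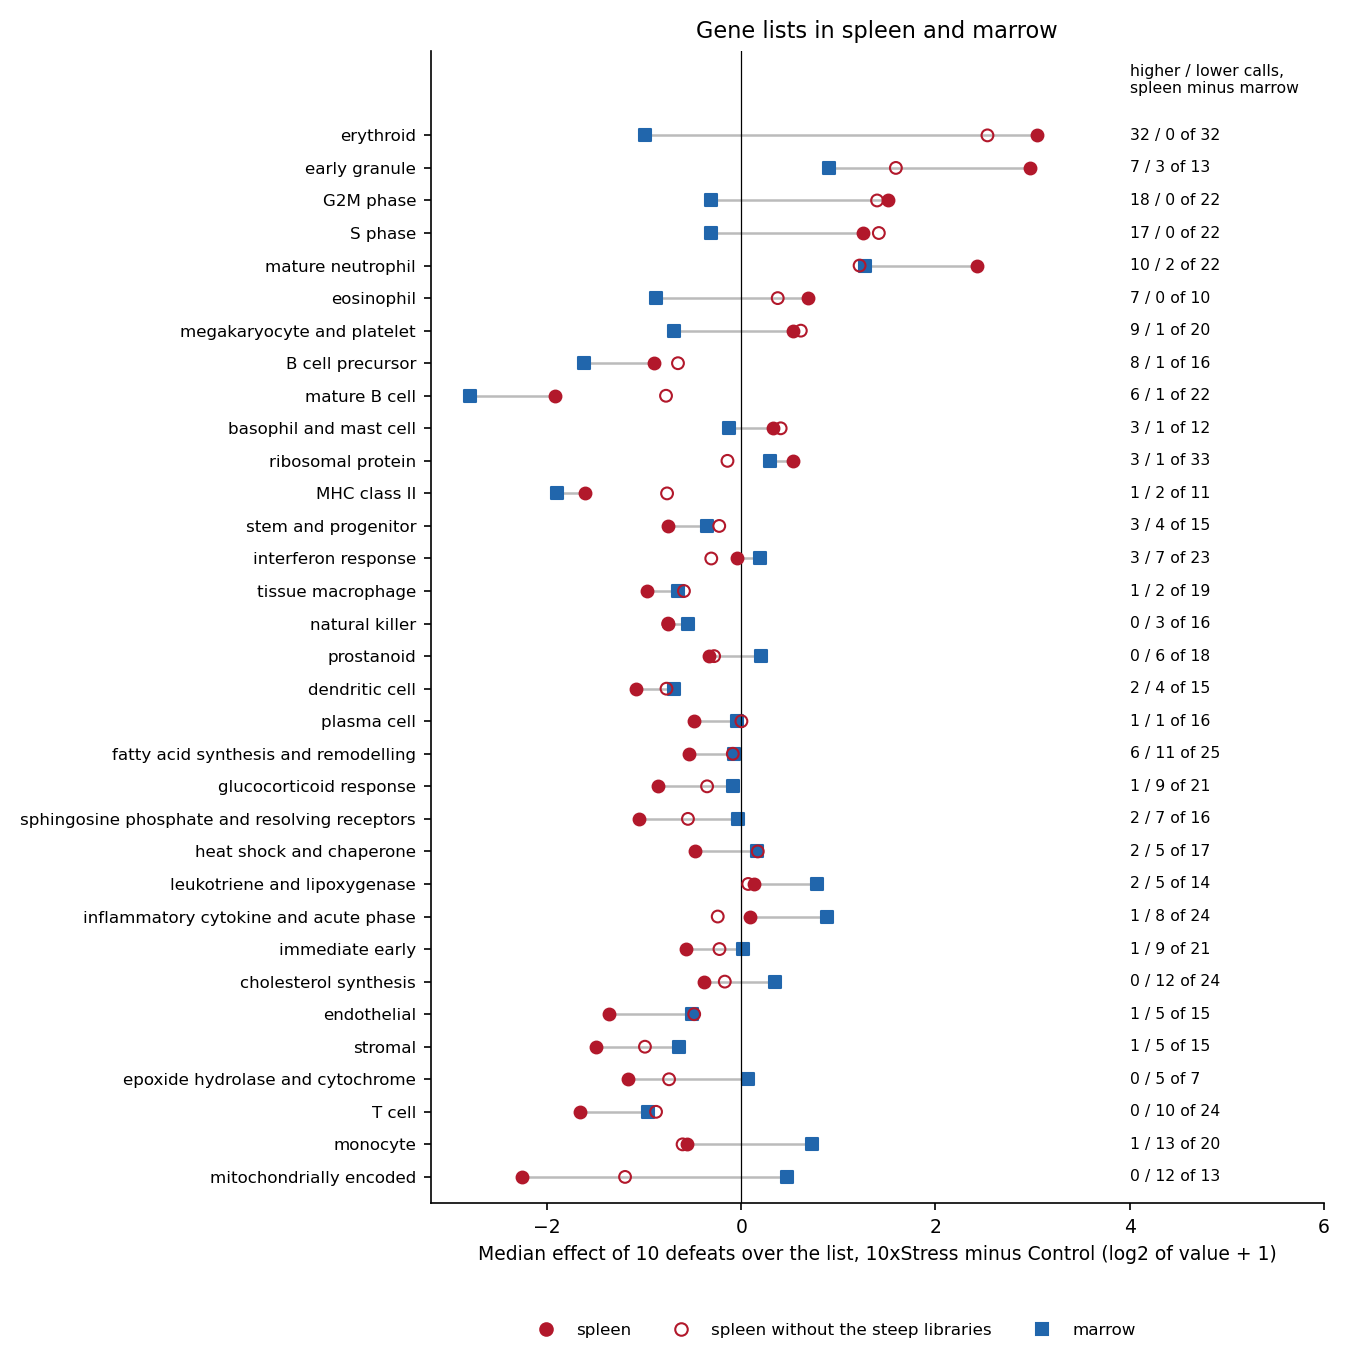
Median effect of 10 defeats (log2 of value + 1) over each gene list in spleen, in spleen without the steep libraries (open circles) and in marrow (squares), ordered by the median difference; counts at the right give calls higher and lower in the difference. Erythroid, S phase and G2/M lists lie on opposite sides of 0 in the 2 tissues with either set of spleens, as do monocyte and mitochondrially encoded genes in the other direction.

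Some lists changed with the choice of libraries, and their counts stand beside 16.1% of all genes higher and 27% lower in the difference, or 14.3% and 17.8% without the steep libraries. Of 33 ribosomal protein genes the difference was called higher in 3 and lower in 1, but in none and 10 without the steep libraries, where the median turned to -0.46, against 0.25 with all of them; with equal totals none was higher and 8 were lower. Of 23 interferon response genes 3 were called higher and 7 lower in the difference, and 1 and 5 without them, both near those shares or below them. Of 17 heat shock and chaperone genes tested, 2 were higher and 5 lower, and 3 and 3 without them. Of 18 prostanoid genes tested, none was higher and 6 were lower, and 2 were lower without them.

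The classes were also read in libraries outside the 4 groups compared above: mice defeated 4 times against mice defeated once. These libraries entered the filter and the estimate of the spread behind the classes, but not the effects. There are 2 spleen libraries in each of these groups, and 3 marrow libraries after 4 defeats against 4 after 1. This step is given as a description, with no test. Among genes higher in spleen and lower in marrow after 10 defeats, 74.6% were higher in spleen after 4 defeats than after 1 and 10.1% in marrow, against 42.0% and 41.3% of all genes tested. Genes lower in spleen and higher in marrow were higher in 41.7% and 85.5%, genes higher in both in 79.2% and 92.9%, and genes lower in both in 21.0% and 5.75%. For genes lower in spleen and higher in marrow the spleen share was thus that of all genes. In these libraries the spleens after 1 defeat had GC slopes of -0.467 and -0.456 log2 units per 10 percentage points against spleen controls, and those after 4 defeats -0.036 and -0.032, with haemoglobin shares of 1.82% and 2.19% after 1 defeat and 1.74% and 14.1% after 4; the part of GC content and haemoglobin in these shares was not tested.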

How the data were processed

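Polyadenylated RNA from whole spleen and flushed femoral marrow was sequenced from stranded libraries, per the labels' protocols. The deposited table gives 1 signal value per gene and library, an abundance that the authors scaled; the submitters' processing notes name kallisto 0.46.1, sleuth and GRCm38, and the roles of these tools are not given in the sources used here. Of 35885 gene identifiers 99.3% were found in the GENCODE M21 annotation. No 2 libraries were identical.

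Since the values are not read counts, log2(value + 1) was fitted with limma 3.58.1 in R 4.3.3 (trended, robust variance). The difference of effects was fitted over all 37 libraries for genes at 1 or more in at least 2 libraries. The effect in spleen was fitted over the spleen libraries with the same filter, and that in marrow over the marrow libraries for genes at 1 or more in at least 3. P-values were adjusted by the Benjamini-Hochberg method over all genes tested, with a threshold of 0.05. A difference on this scale understates the change of low genes, and p-values measure the spread between libraries.

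Genes named are, per class, up to 5 with the largest difference (for classes of 1 direction, the largest smaller effect). For these, libraries do not overlap in the tissues called, and the mean of the higher group there is at least 2. Predicted gene models and genes annotated as other than protein-coding were left out of this choice. Added to them were up to 3 genes per gene list by p, and a fixed set. Not all of them are printed, and those printed among them were chosen with their values known. The classes, gene lists and fixed set were chosen with earlier results of these data known. In data simulated for the difference of effects over 14513 genes, 40% of 100 genes changed by 1 on the log2 scale were recovered. Of 100 genes changed by 2, 84% were recovered, with 33 false calls among the unchanged genes. Beside 40 and 84 recovered genes, these 33 are a larger share of the calls than the adjusted p threshold aims at. Recovery was read by size of change only. Whether it holds for low genes, or for spleens split into steep and other libraries, was not tested. Alternatives were 3 rescalings, another pseudocount, no filter, fewer libraries in the fit, a spread for each tissue, removal of length and GC trends, a replicate block and leaving out libraries. Some genes that the rule names are not reported here.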

Additional observations from a re-analysis of the deposited data

Results flagged for a closer look

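The effect of 10 defeats differed between spleen and marrow, by the test of the difference itself, for 2330 genes with a higher and 3919 with a lower effect in spleen.

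A single library stood far from the others of its group in 26 of 273 sets of gene and group. The 91 genes followed were chosen and many of them move together, so these sets are not independent. How many sets chance alone would flag was not measured. Marrow D6 after 10 defeats stood apart most often. It was the lowest of its group for the red cell genes Uros (15.5), Tal1 (12.7), Gata1 (13.2), Prdx2 (289) and Trim10 (38.9). It was the highest for Prtn3 (1915), S100a8 (75842), Lcn2 (13433), C3 (375) and Hmgcs1 (21.8). Its haemoglobin share of 11.1% was also the lowest of its group.

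Spleen control C3 was the highest of its group for Aqp1 (98.0), Hemgn (35.7), Tal1 (12.9), Car2 (262), Mgst3 (45.2), Elane (2.72) and Ngp (27.4), and the lowest for Bach2 (6.25). Its haemoglobin share of 23.1% was the highest of the spleen controls.

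Among spleens after 10 defeats, D4 was lowest for Epor (30.7), D9 lowest for mt-Co1 (886), and D6 highest for Prok2 (3.15) and Ggt1 (9.90) and lowest for Alox15 (0.137). Spleen control C2 was highest for Ggt1 (3.31). In marrow after 10 defeats, D9 was lowest for Fos (13.5) and D10 highest for Bcl6 (28.7).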

How the results depend on the processing

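Counts of calls stayed within 1.5 times except as follows. Without the steep libraries, an alternative chosen after seeing the data, 2548 genes were lower in the difference, 3243 were called in spleen, 713 in both tissues, 1128 in spleen only, 1963 in marrow only and 828 in opposite directions. With equal totals, 956 genes were higher in the difference and 816 opposite.

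Leaving out each library in turn gave 1999 to 2657 genes higher and 3224 to 4789 lower in the difference, 6567 to 9030 called in spleen, 3785 to 5780 in marrow, 1285 to 2209 in both, 2646 to 4105 in spleen only, 597 to 1062 in marrow only and 998 to 1538 opposite. Marrow control C4 gave the lowest counts for marrow (3785), both tissues (1285) and marrow only (597).

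Whether a shared library number marks the same mouse was not settled. Of 8 pairs 4 correlated above 0.1 (range -0.03 to 0.22), and 6 marrow libraries correlated best with their own number. Each was compared with the 4 control spleens or the 6 spleens after 10 defeats. How often chance alone would give 6 of 8 was not tested. With the number as a replicate block, 2350 genes were higher and 3967 lower in the difference, 3354 spleen only and 940 marrow only.

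Of 91 genes followed, 15 lost and 6 gained a called difference under some setting, and 66 kept their class without the steep libraries. When each library was left out in turn, 63 of the 91 kept their class every time. The differences that changed sign were not called as reported. Without the steep libraries they were -1.38 for Ifitm6, -0.70 for F10, 0.87 for Bach2, 1.99 for Fcmr and 0.34 for Pax5. With quantile normalization they were 0.12 for Stfa1, 0.12 for Bach2, 0.072 for Il1b and 0.52 for Alox5. With median-ratio rescaling they were 0.15 for Bach2, 0.22 for Fcmr, 0.23 for Il1b and 0.063 for Alox5. With equal totals they were -0.38 for Ifitm6, -0.40 for F10, -0.41 for Fcer2a and -0.36 for S1pr1. With a pseudocount of 0.1 they were 1.98 for Stfa1, 0.27 for Fcmr and 0.24 for Alox5. With the trend removed they were -0.13 for Ifitm6 and 0.30 for Bach2. Leaving out a library gave -0.46 to 0.16 for Stfa1, -0.20 to 0.68 for Ifitm6, -0.088 to 0.34 for F10, -0.39 to 0.13 for Bach2, -0.18 to 0.59 for Fcer2a, -0.65 to 0.43 for Fcmr, -0.0021 to 0.54 for S1pr1 and -0.48 to 0.30 for Il1b. The cause was not tested.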
